A study of Mus musculus with 4 samples.

Results

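The 8 genes described here, *Fer*, *2610008E11Rik*, *Stam*, *Cadm1*, *Lrwd1*, *Cttnbp2*, *Fam149b* and *Krit1*, were chosen by their isoform use in a Nanopore long-read dataset of mouse neural stem cells: the control library was said to use another main isoform than the 3 libraries that received Cre mRNA. They are 8 of the 14949 genes with reads, and their 36 isoforms include 29 with 10 or more reads over the 4 libraries. At that limit, Stam-206 and Cttnbp2-202 had 10 reads each, and read-named isoform B of *Stam*, with 8, fell outside. The values that chose the genes are thus the isoform shares of the control library set against those of the Cre mRNA libraries, and everything below on that contrast is a description without a test. In the table itself, 6 of the 8 genes had another main isoform in all 3 Cre mRNA libraries, and *Cadm1* and *Krit1* had one in only 1 of them.

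Neural stem cells were grown as neurospheres from embryonic neocortex, and Cre recombinase was supplied as mRNA in lipid nanoparticles (LNP), which removes a gene segment flanked by loxP sites (floxed, f/f). The control, here Tut1f/f, carried floxed *Tut1* and received empty LNP; it is titled wild type in the labels. The 3 others received Cre mRNA: Tut1f/f;Cre with floxed *Tut1*, Trp53f/f;Cre with floxed *Trp53* (written p53f/f in the labels), and Tut1f/f;Trp53f/f;Cre with both. *Tut1* encodes the enzyme that lengthens U6 snRNA, an RNA at the catalytic centre of the spliceosome, with uridines, and *Trp53* encodes p53. Where values of several libraries follow each other, their order is Tut1f/f first, then Tut1f/f;Cre, next Trp53f/f;Cre, last Tut1f/f;Trp53f/f;Cre. Treatment lasted 3 days, and each group is 1 library, so no difference between groups could be set against replicate spread. No group in the table is Tut1f/f;Trp53f/f or Trp53f/f without Cre, so receiving Cre mRNA and being another culture than the control cannot be told apart, and the culture, litter or run behind each library was not given in the sources used here.

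A gene is transcribed with its introns, which the spliceosome removes between a 5′ donor, nearly always beginning with GT, and a 3′ acceptor. Isoforms of a gene differ in which exons are joined and in where transcription starts and ends. A transcript that keeps an intron or ends inside one often has no complete reading frame, and many such transcripts stay in the nucleus or are degraded. A long read can be assigned to 1 isoform, and isoform usage is the percentage of a gene's reads that an isoform takes.

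The table holds 3 kinds of isoform. Plain isoforms carry the identifier of an annotated Ensembl transcript; variants carry such an identifier with a numbered suffix; and read-named isoforms carry only the name of a sequencing read. Read-named isoforms are lettered here within a gene (A has the most reads), and neither their sequence nor that of the variants is used here. For 4 annotated isoforms that read past a splice donor, the site can be shown from the GENCODE M21 transcript sequences (build GRCm38). Cttnbp2-203, the main isoform of *Cttnbp2* in every Cre mRNA library, continued 1880 bases beyond the end of exon 4 of 23 (chr6:18433780-18433839, minus strand). Krit1-207 continued 1286 bases beyond exon 12 of 17 (chr5:3823766-3823825, plus strand), Cadm1-208 109 bases beyond exon 7 of 11 (chr9:47813926-47813985, plus strand), and 2610008E11Rik-203 1388 bases beyond exon 1 of 6 (chr10:79097418-79097477, minus strand). These sites are shown because the annotation allows the unspliced and the spliced form to be set side by side. Lower case marks the last 20 exon bases, and capitals the 40 bases that follow: intron in the first line of each pair, the next exon in the second.
Cttnbp2-203: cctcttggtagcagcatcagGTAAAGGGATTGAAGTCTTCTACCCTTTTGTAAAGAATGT
Cttnbp2-201: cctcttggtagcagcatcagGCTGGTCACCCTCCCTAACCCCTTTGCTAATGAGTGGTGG
Krit1-207: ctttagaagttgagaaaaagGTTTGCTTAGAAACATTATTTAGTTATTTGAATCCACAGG
Krit1-201: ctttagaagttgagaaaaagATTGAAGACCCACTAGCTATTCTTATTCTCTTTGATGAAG
Cadm1-208: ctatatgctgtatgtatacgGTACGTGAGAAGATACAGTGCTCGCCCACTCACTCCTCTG
Cadm1-202: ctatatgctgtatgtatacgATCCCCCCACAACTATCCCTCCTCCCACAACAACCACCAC
2610008E11Rik-203: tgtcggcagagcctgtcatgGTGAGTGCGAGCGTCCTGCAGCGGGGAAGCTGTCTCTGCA
2610008E11Rik-201: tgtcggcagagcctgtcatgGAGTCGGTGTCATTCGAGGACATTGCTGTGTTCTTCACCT
All 4 unspliced forms carried GT as the first intron bases, so each annotated isoform leaves an ordinary donor unused.

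**Figure D1:**
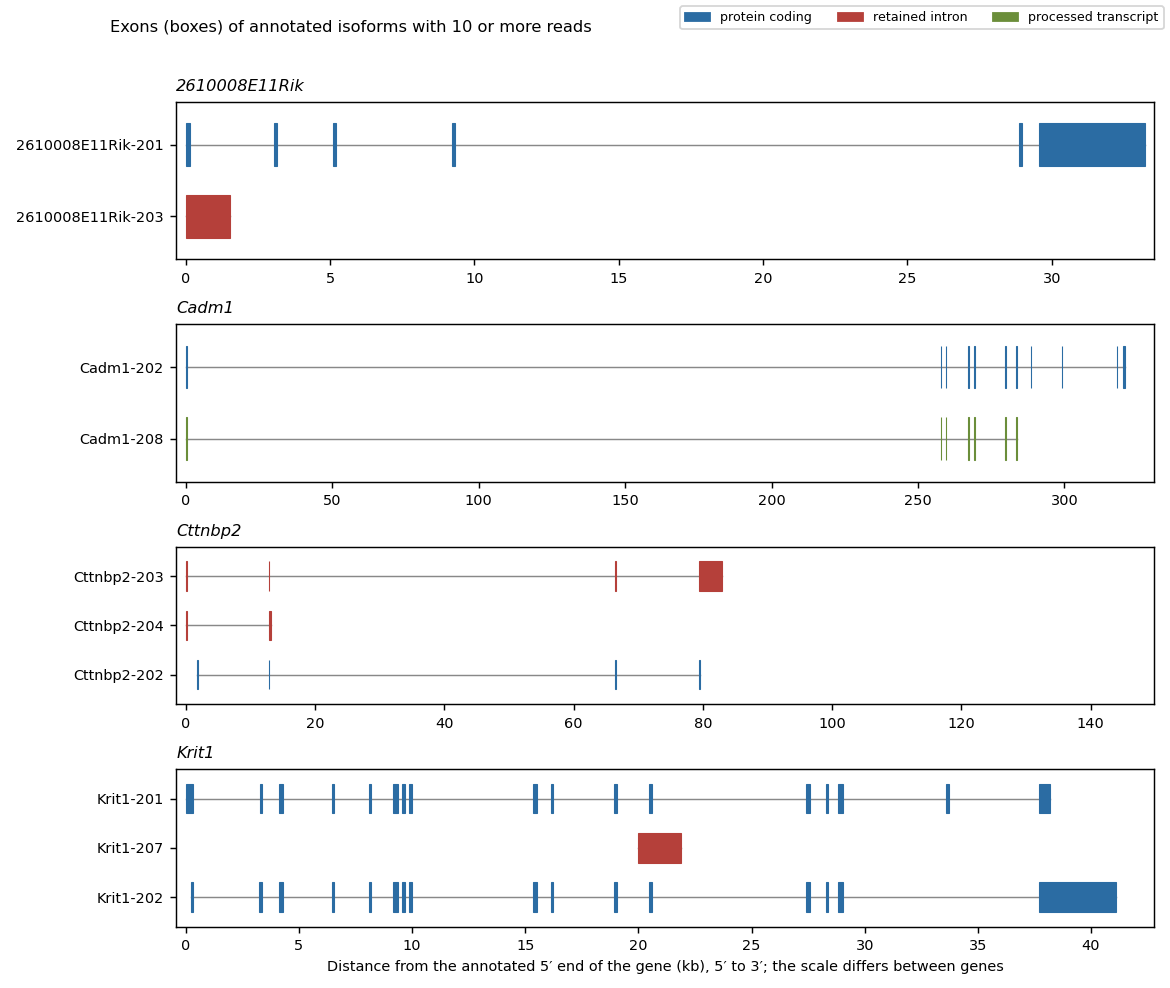
Exons (boxes) and introns (lines) of the annotated isoforms with 10 or more reads of 4 genes, against the distance from the annotated 5′ end of the gene in kb; the scale differs between genes, and colour gives the annotated biotype. Krit1-207 and 2610008E11Rik-203 are single blocks of 1914 and 1510 bases, and Cttnbp2-203 ends inside the gene after 4 exons.

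The libraries differed in more than these genes. Reads assigned to genes numbered 2863392 to 4244467 per library, of 3936827 to 5125888 reads in all. Entries without a gene took 17.2% of reads in Tut1f/f and 27.3% to 30.2% in the Cre mRNA libraries. Of gene reads, read-named isoforms took 13.6% in Tut1f/f against 16.3% to 16.8%, annotated retained-intron transcripts 0.926% against 1.45% to 1.55%, and the mean annotated length of plain transcripts was 1670.6 bases against 1527.8 to 1569.7. A single ribosomal RNA gene took 18.7% of gene reads in Tut1f/f and 5.46% to 9.75% elsewhere. These values separated Tut1f/f from the Cre mRNA libraries just as the members' isoforms did, and their part in the results was not tested. The 8 neural stem cell markers summed to 11977.6 scaled reads (per 1000000 gene reads) in Tut1f/f and 11725.0 to 13083.1 in the Cre mRNA libraries, of which *Fabp7* held 9883.4 in Tut1f/f. Single stem cell markers differed more than the sum: *Hes1* had 148.9 in Tut1f/f and 444.2 to 501.4 in the others, *Nes* 139.1 and 195.8 to 306.9, *Sox9* 36.9 and 66.3 to 91.4, *Sox2* 211.3 and 265.4 to 394.0, and *Vim* 1261.1 and 611.3 to 760.9. Neuronal markers summed to 9.34 to 15.5 with *Rbfox3* at 0 reads, astrocyte markers to 49.4 in Tut1f/f and 7.01 to 31.0 in the others with *Gfap* at 0, and oligodendrocyte lineage markers to 351.2 in Tut1f/f and 464.5 to 686.8 in the others. The astrocyte sum was mostly *Aldh1l1* (46.9, then 3.21 to 23.6), while *S100b* (2.51, then 2.92 to 6.99) and *Aqp4* (0, then 0.333 to 1.33) lay the other way; the oligodendrocyte lineage sum was mostly *Olig2* (250.2, then 357.3 to 570.1). The part of these differences in the members' results was not tested. Of 4 microglial markers only *P2ry12* had reads (0.333 to 0.876), of 3 fibroblast markers only *Col1a1* (at most 0.292), and all 3 endothelial markers were at 0. *Trp53* had 175, 67, 10 and 19 reads in the 4 libraries. *Tut1* had 37, 11, 14 and 27 reads, so the library labelled as deleted for both genes was near the control; since Cre removes part of the *Tut1* transcript only, gene reads do not measure that deletion. *Xist* had reads in Tut1f/f;Cre and Trp53f/f;Cre (44 and 49) and none in the other two, where Y-linked genes were read, a division unlike that of the members.

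Over all genes, 5654 had at least 20 reads in each library and 2 or more isoforms, and the main isoform of Tut1f/f was main in no Cre mRNA library in 4.90% of them (277 genes). In 237 of these (85.6%), the Cre mRNA libraries shared 1 main isoform, as they did in the 6 members that met the rule. Since the rule used this contrast, nothing is read from the members' count. The members' main isoform of Tut1f/f changed by a median of -44.65 points of usage (mean of the Cre mRNA libraries minus Tut1f/f, range -65.6 to -14.4), where the median over all genes tested was -1.30. The choice of members favoured such a fall, so nothing is read from its size. With annotated isoforms only, *2610008E11Rik*, *Cadm1* and *Krit1* had enough reads and isoforms for the rule, and 0 of these 3 met it, beside 3.22% of 4228 genes; of the 3, only *2610008E11Rik* had met it with all isoforms. On that scale 2610008E11Rik-201 went from 97.5% in Tut1f/f to 82.3%, 91.5% and 81.4%, Cadm1-202 from 90.2% to 35%, 78.6% and 70.8%, and Krit1-201 from 67.6% to 38.5%, 45.7% and 55.9%.

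**Figure D2:**
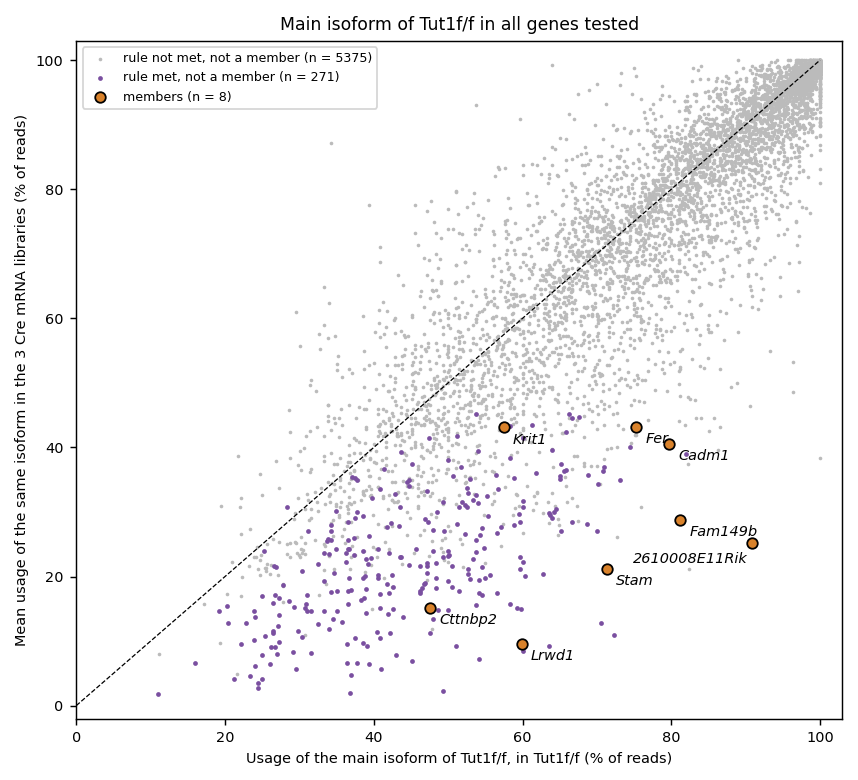
Each point is a gene; the x axis gives the usage of its main isoform of Tut1f/f in that library (% of the gene's reads) and the y axis the mean usage of the same isoform in the 3 Cre mRNA libraries. The 8 members (orange) lie below the dashed line of equal usage, as do many of the 271 other genes that met the rule (violet).

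*2610008E11Rik*, a zinc finger protein gene (ENSMUSG00000060301, chr10:79064374-79097600, minus strand), showed the widest shift. Its coding isoform 2610008E11Rik-201 (6 exons, 669 codons) took 79 of 87 reads in Tut1f/f, or 90.8% (Wilson 95% interval 82.9 to 95.3, as for every usage interval here). In the Cre mRNA libraries it took 23.6% (18.4 to 29.7), 30% (24.3 to 36.4) and 22.1% (17.1 to 28.1). Read-named isoform A went the other way: it held 5 reads (5.75%) in Tut1f/f, then 154 (71.3%), 145 (66.8%) and 156 (71.9%). In both isoforms the 3 Cre mRNA libraries lay close together and far from Tut1f/f. The choice of genes favoured this pattern, so nothing is read from it. The retained-intron form 2610008E11Rik-203, whose donor is shown above, had 0 of 87 reads in Tut1f/f, where 3 reads would be a usage of 3.45% and the upper Wilson limit is 4.23%. It had 7, 4 and 9 reads in the Cre mRNA libraries (1.84% to 4.15%), which lie below that upper limit, so a difference in usage was not detectable at this depth.

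Usage alone does not say which isoform changed in amount, so reads were also scaled to 1000000 gene reads by the trimmed mean of M values (TMM), with exact Poisson 95% intervals. 2610008E11Rik-201 had 19.8 scaled reads in Tut1f/f, then 16.9, 19.0 and 16 with Cre mRNA, and all 3 intervals of its log2 ratio to Tut1f/f held 0. Isoform A had 1.25 (0.407 to 2.93) in Tut1f/f, then 51.0, 42.3 and 51.9, which is 33.8-fold to 41.4-fold higher. The coding isoform therefore kept its level within counting error while A was added to it. In bulk cells, fewer cells that express a gene and less RNA per cell cannot be told apart.

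*Fer*, a non-receptor tyrosine kinase gene of cell adhesion and cytokine signalling (ENSMUSG00000000127, chr17:63863062-64139496, plus strand), had the most reads of the 8, with 182, 355, 469 and 388 in the 4 libraries. It had only 2 isoforms. The coding Fer-201 (18 exons, 823 codons) took 75.3% (68.5 to 81.0) in Tut1f/f and 46.5%, 42.4% and 40.7% in the Cre mRNA libraries, where the intervals reached from 35.9 to 51.7. Read-named isoform A took the remainder: 24.7%, 53.5%, 57.6% and 59.3%. In Tut1f/f;Cre its lead was 190 reads to 165 (7.04 points) with overlapping intervals (48.3 to 58.6 and 41.4 to 51.7), and *Fer* did not meet the rule when a lead of 10 points was asked for. Both isoforms were higher in scaled reads in the Cre mRNA libraries, but unequally. Fer-201 was 1.53-fold to 1.69-fold higher than its 34.3 in Tut1f/f, and isoform A 5.58-fold to 6.99-fold higher than its 11.3.

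*Fam149b*, a gene linked to primary cilia (ENSMUSG00000039599, chr14:20348162-20383491, plus strand), had fewer reads and the same arrangement. A variant of the coding Fam149b-210 took 26 of 32 reads (81.2%, 64.7 to 91.1) in Tut1f/f and 18 of 61 (29.5%), 20 of 56 (35.7%) and 8 of 38 (21.1%) in the Cre mRNA libraries. Read-named isoform A took the rest, up to 78.9% (63.7 to 88.9) in Tut1f/f;Trp53f/f;Cre. The variant's scaled reads were 6.52 in Tut1f/f, 5.97 in Tut1f/f;Cre and 5.84 in Trp53f/f;Cre, within counting error of each other, and 2.66 in Tut1f/f;Trp53f/f;Cre, where the log2 ratio to Tut1f/f was -1.29 (-2.64 to -0.11). Isoform A was 9.47-fold, 6.99-fold and 6.64-fold higher than its 1.5 in Tut1f/f.

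*Cttnbp2* encodes a cortactin-binding protein of dendritic spines (ENSMUSG00000000416, chr6:18366478-18514843, minus strand). Its main isoform of Tut1f/f rested on 10 of 21 reads of read-named isoform A (47.6%, 28.3 to 67.6) against 8 of the retained-intron form Cttnbp2-203 (38.1%, 20.8 to 59.1). A lead of 2 reads made it meet the rule, and the intervals of both isoforms overlap. *Cttnbp2* did not meet the rule when a lead of 10 points was asked for, or when variants were merged with their transcript. In the Cre mRNA libraries Cttnbp2-203 led clearly, with 78 of 102 reads (76.5%, 67.4 to 83.6), 57 of 77 (74.0%) and 54 of 84 (64.3%). Isoform A took 9.80%, 15.6% and 20.2%. In scaled reads, Cttnbp2-203 was 2.01 in Tut1f/f and 25.8, 16.6 and 18.0 in the others, a 12.9-fold, 8.30-fold and 8.96-fold difference. Isoform A was 2.51 in Tut1f/f and 3.31, 3.50 and 5.66 in the others, and each interval of its ratio held no change. The only annotated coding isoform with 10 or more reads, Cttnbp2-202, had 0, 6, 2 and 2 reads. Most reads of this gene therefore fell on a form that ends in the intron after exon 4, in every Cre mRNA library.

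*Lrwd1*, whose protein associates with the origin recognition complex (ENSMUSG00000029703, chr5:136122772-136136074, minus strand), moved in another way. A variant of the coding Lrwd1-201 (15 exons, 648 codons) took 100 of 167 reads (59.9%, 52.3 to 67.0) in Tut1f/f and 3 of 50 (6%), 6 of 51 (11.8%) and 4 of 37 (10.8%) in the Cre mRNA libraries. Read-named isoform A took 27.5% in Tut1f/f and 60.0%, 52.9% and 62.2%. In scaled reads isoform A was 11.5 in Tut1f/f and 9.94, 7.88 and 7.66 in the others, each within counting error of Tut1f/f. The variant went from 25.1 to 0.994, 1.75 and 1.33, with log2 ratios of -4.66 (-6.96 to -3.07, from 3 reads), -3.84 (-5.32 to -2.67) and -4.23 (-6.14 to -2.83). Here the shift in usage thus came with fewer reads of the coding variant, where in *2610008E11Rik* it came with more reads of the other isoform. Read-named isoform B of *Lrwd1* took 4.79% in Tut1f/f and 18.0% to 27.0% elsewhere, on 8 to 12 reads in every library.

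*Stam* encodes a subunit of ESCRT-0, which sorts ubiquitinated receptors on endosomes (ENSMUSG00000026718, chr2:14074098-14149634, plus strand), and combined both kinds of change. A variant of the coding Stam-202 took 62 of 87 reads (71.3%, 61.0 to 79.7) in Tut1f/f and 4 of 40 (10%, 3.96 to 23.1), 12 of 38 (31.6%, 19.1 to 47.5) and 11 of 50 (22.0%, 12.8 to 35.2) in the Cre mRNA libraries. Read-named isoform A took 16.1%, 72.5%, 57.9% and 62.0% over the 4 libraries. The variant's scaled reads were 11.7-fold, 4.44-fold and 4.24-fold lower than the 15.5 of Tut1f/f. Isoform A was 2.74-fold, 1.83-fold and 2.94-fold higher than 3.51, and the interval in Trp53f/f;Cre included no change (log2 0.87, -0.16 to 1.95).

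*Cadm1*, an immunoglobulin-family adhesion molecule of neurons and epithelia (ENSMUSG00000032076, chr9:47530173-47857637, plus strand), met the rule only in part. The coding Cadm1-202 (11 exons, 456 codons) took 55 of 69 reads (79.7%, 68.8 to 87.5) in Tut1f/f. It stayed the main isoform in Trp53f/f;Cre (22 of 43 reads, 51.2%) and in Tut1f/f;Trp53f/f;Cre (17 of 35, 48.6%), and lost that place only in Tut1f/f;Cre, with 7 of 32 reads (21.9%) against 13 (40.6%, 25.5 to 57.7) of Cadm1-208. Cadm1-208, a processed transcript that stops 109 bases into the intron after exon 7, took 8.70% in Tut1f/f, 14.0% in Trp53f/f;Cre and 20% in Tut1f/f;Trp53f/f;Cre, all on 6 or 7 reads. Cadm1-202 was lower than Tut1f/f in scaled reads in all 3 libraries, by 5.94-fold, 2.15-fold and 2.44-fold.

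*Krit1* encodes a scaffold protein mutated in cerebral cavernous malformation (ENSMUSG00000000600, chr5:3803184-3845564, plus strand) and also met the rule only in part. The coding Krit1-201 (17 exons, 736 codons) took 23 of 40 reads (57.5%, 42.2 to 71.5) in Tut1f/f and 16 of 36 (44.4%) in Trp53f/f;Cre and 19 of 38 (50%) in Tut1f/f;Trp53f/f;Cre, where it stayed the main isoform, in Trp53f/f;Cre by 1 read over Krit1-207. In Tut1f/f;Cre it had 15 reads of 43 (34.9%) and the retained-intron form Krit1-207 had 16 (37.2%), a lead of 1 read. Krit1-201 scaled to 5.77 in Tut1f/f and to 4.97, 4.67 and 6.33, within counting error. Krit1-207 went from 2 reads in Tut1f/f (5%, 1.38 to 16.5) to 16, 15 and 6 reads, with log2 ratios of 3.40 (1.31 to 6.57), 3.13 (1.02 to 6.30) and 1.99 (-0.49 to 5.33). The last of these intervals included no change.

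**Figure D3:**
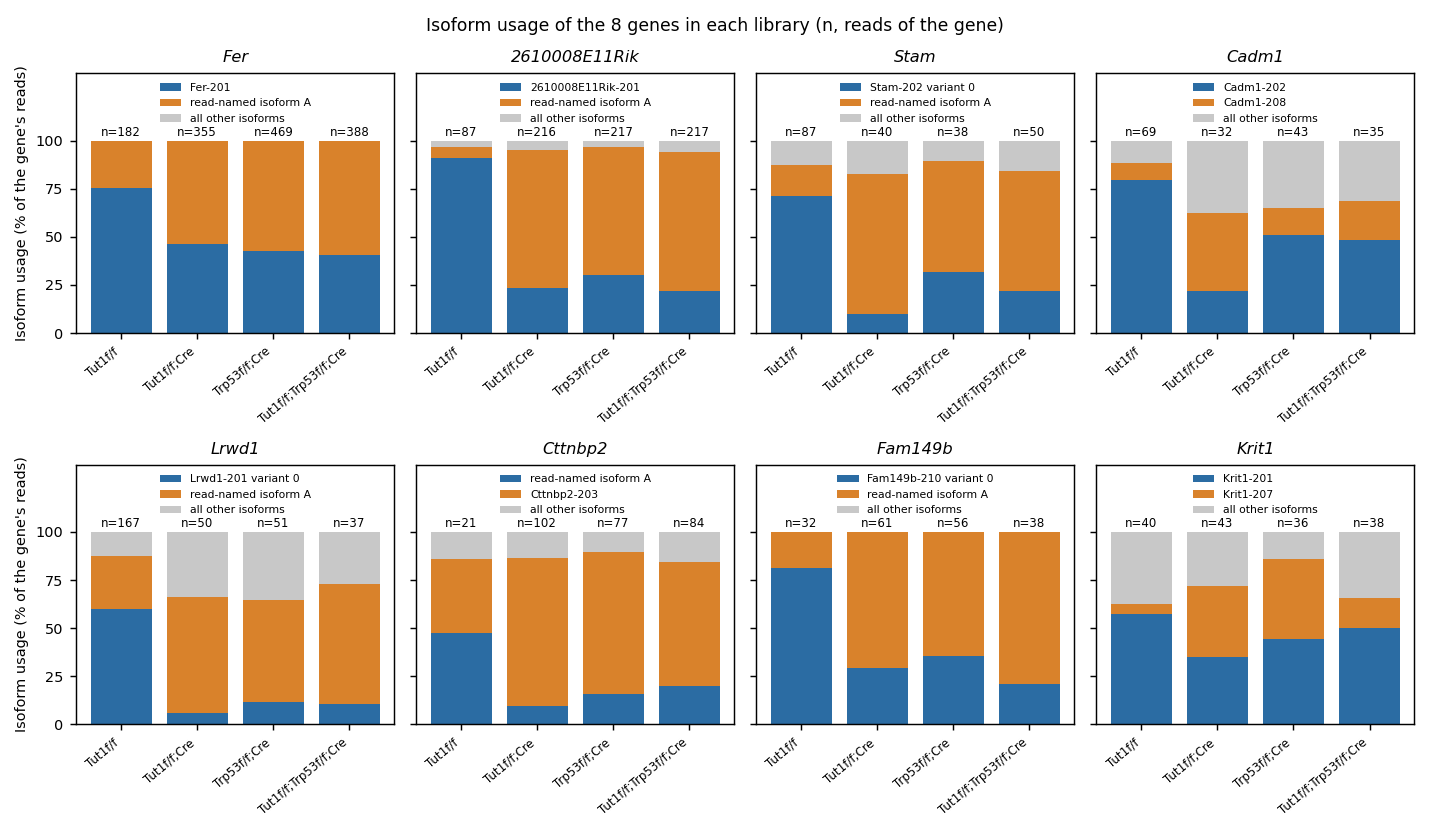
Bars give the percentage of each gene's reads in every library that fell on the main isoform of Tut1f/f (blue), the leading other isoform of the Cre mRNA libraries (orange) and all other isoforms (grey); n is the number of reads of the gene. Blue is below 50% in all 3 Cre mRNA libraries in 6 genes, and *Cadm1* and *Krit1* keep blue as the largest part in Tut1f/f;Trp53f/f;Cre and in Trp53f/f;Cre.

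**Figure D4:**
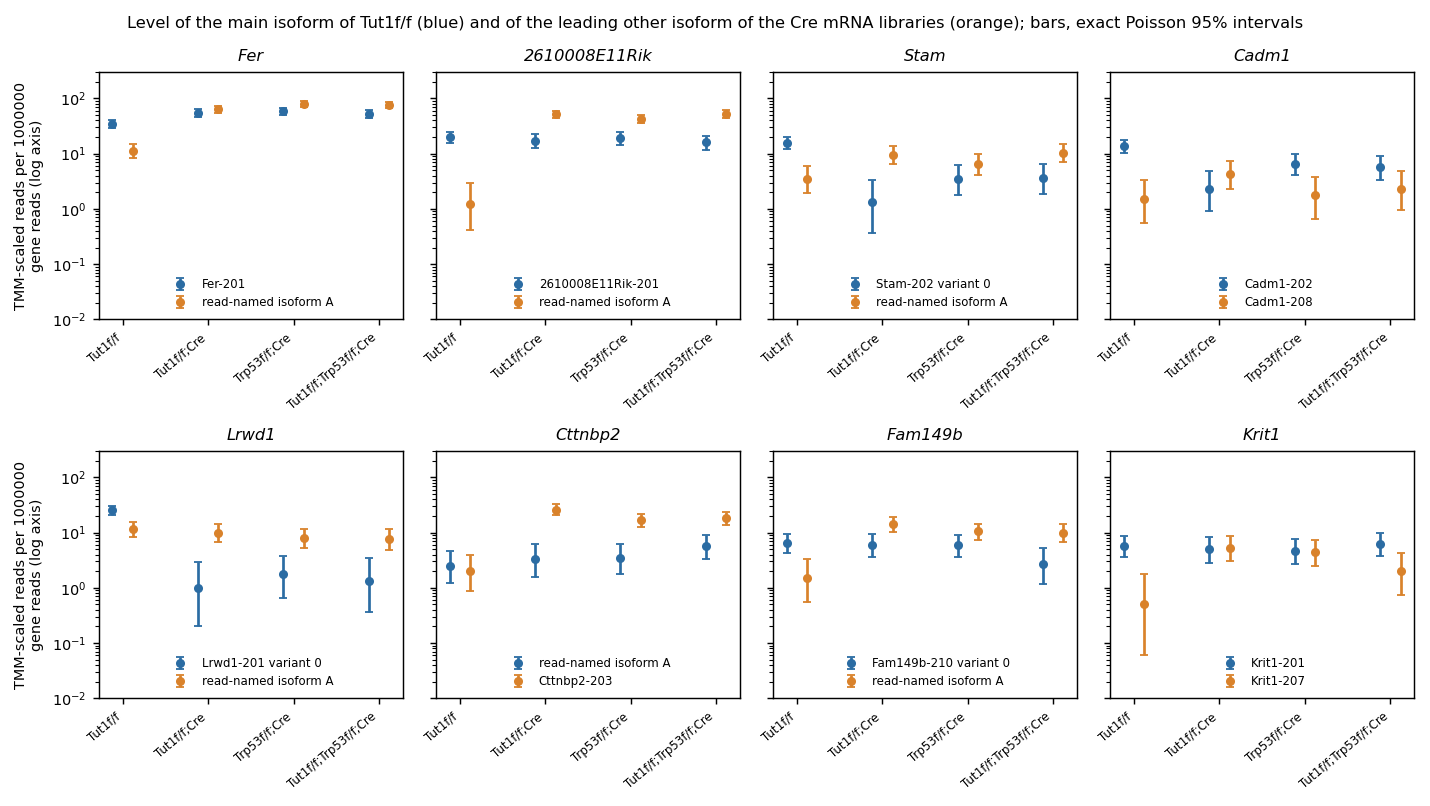
TMM-scaled reads per 1000000 gene reads (log axis) of the same 2 isoforms of each gene in every library, with exact Poisson 95% intervals as bars. In *2610008E11Rik* blue stays level and orange goes from 1.25 to between 42.3 and 51.9, whereas in *Lrwd1* orange stays level and blue goes from 25.1 to between 0.994 and 1.75.

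Of the 6 members that met the rule, 5 went from a coding annotated isoform or its variant to a read-named isoform, and *Cttnbp2* went from a read-named isoform to an annotated one. Among the 237 genes with 1 shared main isoform in the Cre mRNA libraries, 49 (20.7%) went from annotated to read-named, 34 (14.3%) from read-named to annotated, 114 (48.1%) from one annotated form to another, and 40 (16.9%) between read-named forms. Where both were annotated and had a length (109 genes), the new main isoform was longer in 51 (46.8%). By span, 7 of 8 members exceeded 23007 bases, the median of the genes tested, and *Lrwd1*, at 13303 bases, did not. The members' own median was 58959. Spans were not compared with those of the other genes that met the rule, so length is not read as a trait of the members.

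Summed over isoforms, the members' levels also differed from Tut1f/f, in both directions. A gene was counted as past the level rule when its scaled reads differed at least 2-fold with an exact 95% interval of the ratio that excluded no change. *Fer*, *2610008E11Rik* and *Cttnbp2* were higher in all 3 Cre mRNA libraries. *Cttnbp2* had the largest log2 ratios among the members, at 2.68 (1.99 to 3.44), 2.09 (1.38 to 2.86) and 2.41 (1.71 to 3.17), from 21 reads in Tut1f/f and 102, 77 and 84 in the others. *Fam149b* was past the rule in Tut1f/f;Cre (1.33, 0.69 to 2) and Trp53f/f;Cre (1.03, 0.38 to 1.70) but not in Tut1f/f;Trp53f/f;Cre (0.66, -0.06 to 1.38). *Lrwd1* was lower in all 3, with log2 ratios of -1.34 (-1.82 to -0.87), -1.49 (-1.97 to -1.03) and -1.76 (-2.32 to -1.24). *Stam*, *Cadm1* and *Krit1* were past the rule in none.

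This gives 5, 5 and 4 of 8 members past the rule in the 3 Cre mRNA libraries, in the order above, beside 26.6%, 28.4% and 21.0% of the 10596 genes tested. The 3 comparisons share the Tut1f/f library, and the choice of members used the same contrast, so nothing is read from these shares. The members' median log2 ratio was 0.92, 0.55 and 0.50, and that of all genes tested was 0.00, 0.01 and -0.03.

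**Figure D5:**
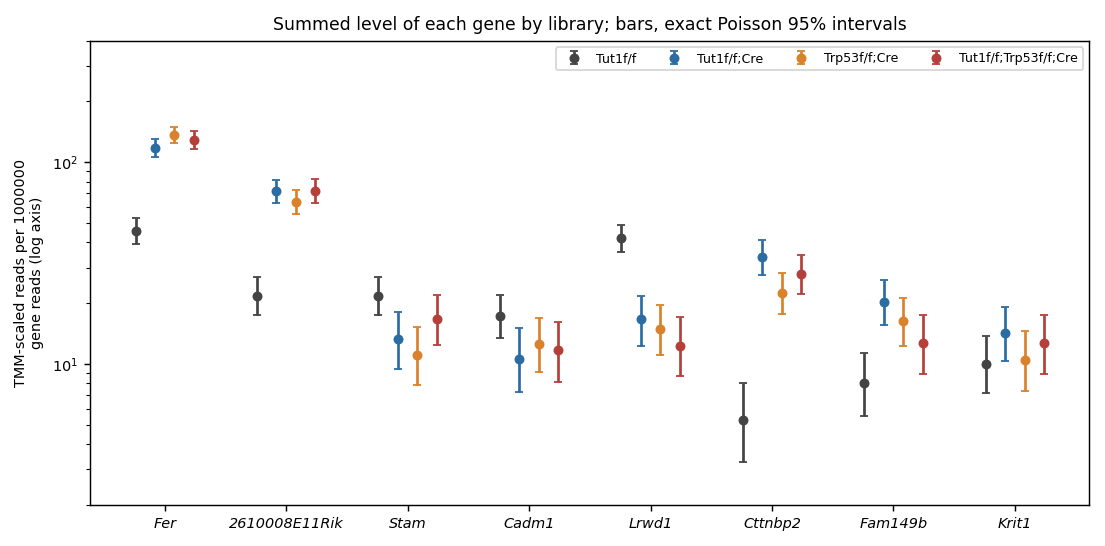
Points give the TMM-scaled reads per 1000000 gene reads (log axis) of each member, summed over its isoforms, in the 4 libraries, with exact Poisson 95% intervals as bars. Tut1f/f (dark grey) lies below the other libraries in *Fer*, *2610008E11Rik* and *Cttnbp2* and above them in *Lrwd1*.

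The 3 pairs of Cre mRNA libraries leave out Tut1f/f, but the choice of members used the isoform shares of these libraries too: it asked for genes in which all 3 departed from Tut1f/f, and so favoured genes in which they resemble each other. The members' values in these pairs are therefore a description, and nothing is read from how alike the 3 libraries are. No member passed the level rule in any pair (0 of 8 each), beside 3.69% of 10596 genes between Tut1f/f;Cre and Trp53f/f;Cre, 4.72% between Tut1f/f;Trp53f/f;Cre and Tut1f/f;Cre, and 7.22% between Tut1f/f;Trp53f/f;Cre and Trp53f/f;Cre. The widest log2 differences were -0.68 (-1.30 to -0.07) in *Fam149b* between Tut1f/f;Trp53f/f;Cre and Tut1f/f;Cre, 0.59 (0.15 to 1.03) in *Cttnbp2* between Tut1f/f;Cre and Trp53f/f;Cre, and 0.59 (-0.05 to 1.23) in *Stam* between Tut1f/f;Trp53f/f;Cre and Trp53f/f;Cre. *2610008E11Rik* differed by 0.01 (-0.27 to 0.29) to 0.19 (-0.09 to 0.47).

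Isoform usage between the same libraries was compared by a two-sided Fisher exact test on reads with Benjamini-Hochberg adjustment over all isoforms of a pair, and a difference was called when it reached 10 points with an FDR below 0.05. Such a test compares these libraries and not the genotypes, and for the members it is not independent of their choice, so no p of a single member is given. Between Tut1f/f;Cre and Trp53f/f;Cre, 0 of 19 member isoforms were called, beside 0.222% of 17119 isoforms, and 3 had an unadjusted p under 0.05, beside 8.21% of all isoforms. Between Tut1f/f;Trp53f/f;Cre and Tut1f/f;Cre, 0 of 21 were called, beside 0.150% of 17348, and 2 had an unadjusted p under 0.05, beside 8.03%. Between Tut1f/f;Trp53f/f;Cre and Trp53f/f;Cre, 0 of 22 were called, beside 1.24% of 17571, and 1 had an unadjusted p under 0.05, beside 12.4%. The median absolute difference in usage was 6.21, 8.46 and 6.49 points over the members' isoforms in the 3 pairs, and 2.09, 2.16 and 2.35 points over all isoforms tested.

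Even for the deeply read members, some intervals of these differences reached past the size asked for a call. A difference of that size is therefore not excluded in those pairs, and the intervals cover counting error only. Isoform A of *2610008E11Rik* differed by 4.48 points (-4.22 to 13.1), 0.593 points (-7.87 to 9.04) and 5.07 points (-3.59 to 13.6) in the 3 pairs. Isoform A of *Fer* differed by -4.05 (-10.9 to 2.78), 5.76 (-1.37 to 12.8) and 1.71 points (-4.91 to 8.28). For genes with few reads the intervals were wide, as in Krit1-207 between Tut1f/f;Cre and Trp53f/f;Cre (-4.46 points, -25.1 to 16.4).

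The few isoforms counted at an unadjusted p under 0.05 lay in *Cadm1*, *Krit1* and *Stam*. They are named as the members of those counts, chosen after their values were seen, and none was called after adjustment. Cadm1-202 had a usage of 21.9% in Tut1f/f;Cre and 51.2% in Trp53f/f;Cre, a difference of -29.3 points (-47.2 to -7.09). Cadm1-208 differed by 26.7 points (6.54 to 45.3) in the same pair, and the Stam-202 variant by -21.6 points (-38.6 to -3.51). Krit1-207 had 15.8% in Tut1f/f;Trp53f/f;Cre, which was -25.9 points (-44.0 to -5.26) from Trp53f/f;Cre and -21.4 points (-38.5 to -1.96) from Tut1f/f;Cre. Cadm1-202 had 48.6% in Tut1f/f;Trp53f/f;Cre, 26.7 points (3.73 to 45.9) above Tut1f/f;Cre. These intervals are not adjusted for the number of isoforms. Since the isoforms were picked by their p, intervals that exclude no change follow from the choice. Nothing is read from these differences.

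Paralogs and binding partners of the members were followed as a list of 28 genes, of which 24 could be tested for level. Against Tut1f/f, 2 were higher and 3 lower in Tut1f/f;Cre, 1 higher and 3 lower in Trp53f/f;Cre, and 2 higher and 1 lower in Tut1f/f;Trp53f/f;Cre, with medians of -0.07, -0.06 and 0.07 on the log2 scale. These are 5, 4 and 3 of 24 genes (5, 5 and 4 when scaled by library totals), beside 26.6%, 28.4% and 21.0% of all genes tested. *Ccm2*, which binds the *Krit1* protein, was the 1 gene of the list lower in all 3: it had 59 reads in Tut1f/f and 10, 8 and 9 in the Cre mRNA libraries, with log2 ratios of -2.16 (-3.29 to -1.18), -2.66 (-3.94 to -1.59) and -2.30 (-3.50 to -1.28). *Pdcd10*, the remaining protein of that complex, stayed within 0.37 (0.15 to 0.59) of Tut1f/f. *Hgs*, which forms ESCRT-0 with *Stam*, had 31 reads in Tut1f/f and 8, 4 and 12 in the others, and was past the rule in Tut1f/f;Cre and Trp53f/f;Cre but not in Tut1f/f;Trp53f/f;Cre (-0.96, -2.06 to 0.04). *Ctnnd1*, encoding the p120 catenin that binds the *Fer* kinase, was past the rule in the same libraries, with 81 reads in Tut1f/f and 21 and 20 there, and had -0.93 (-1.57 to -0.32) in Tut1f/f;Trp53f/f;Cre, short of 2-fold. *Tbc1d32*, a cilium gene like *Fam149b*, was past the rule in Tut1f/f;Cre (1.22, 0.55 to 1.92) and Tut1f/f;Trp53f/f;Cre (1.41, 0.75 to 2.09), and had 0.90 (0.21 to 1.61) in Trp53f/f;Cre, short of 2-fold. None of *Orc1* to *Orc6*, the subunits of the complex that *Lrwd1* associates with, was past the rule in any library. *Strn4* was past it in Tut1f/f;Trp53f/f;Cre on 11 reads against 1 (log2 3.87, 1.09 to 9.30).

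Of 17 genes of that list testable for a switch, 2 met the rule, beside 4.90% of all genes tested, and nothing is read from so small a count. In *Stam2*, a paralog of *Stam*, a variant of the coding Stam2-201 took 27 of 50 reads (54.0%, 40.4 to 67.0) in Tut1f/f against 21 (42.0%, 29.4 to 55.8) of a read-named isoform. The variant took 26.0%, 27.5% and 40.8% in the Cre mRNA libraries, and the read-named isoform 68.0%, 68.6% and 51.0%. In Tut1f/f and in Tut1f/f;Trp53f/f;Cre, where the read-named isoform led by 25 reads to 20 of 49, the intervals of both isoforms overlap. In *Cttnbp2nl*, which was also past the level rule in Tut1f/f;Cre and Trp53f/f;Cre (log2 1.34, 0.93 to 1.77, and 1.76, 1.38 to 2.17) and just short of it in Tut1f/f;Trp53f/f;Cre (0.98, 0.54 to 1.43), the coding Cttnbp2nl-201 took 51.4%, 33.8%, 28.7% and 30%, and the coding Cttnbp2nl-202 took 44.6%, 54.9%, 66.2% and 57.3%. In Tut1f/f these were 38 and 33 of 74 reads, with overlapping intervals (40.2 to 62.4 and 33.8 to 55.9).

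Ranked by the smallest of 6 differences (the lower usage of the main isoform of Tut1f/f and the higher usage of the shared main isoform, in each Cre mRNA library), *2610008E11Rik* stood first of the 237 genes at 60.9 points, *Fam149b* 5, *Stam* 9, *Fer* 25, *Cttnbp2* 32 and *Lrwd1* 37. Of the 142 genes with at least 50 reads in each library, the 5 that are no member and came highest were *Malat1*, *Zfp266*, *Tomm20*, *Polk* and *Yeats4*, with smallest differences of 53.1, 44.4, 44.1, 38 and 37.2 points. *Malat1*, an abundant nuclear noncoding RNA, passed from a variant of Malat1-202 (63.6% in Tut1f/f, 6.90% to 10.5% in the Cre mRNA libraries) to Malat1-203 (12.7%, then 84.4% to 91.6%). *Zfp266*, a zinc finger gene, passed from the coding Zfp266-202 (49.3%) to Zfp266-203, a processed transcript without a reading frame (70.6% to 78.0%). *Tomm20*, a mitochondrial import receptor gene, passed from a variant of Tomm20-201 (60.1%) to Tomm20-201 itself (80.7% to 90.2%). *Polk*, a translesion DNA polymerase gene, passed from the coding Polk-201 (70.0%) to Polk-207, a retained-intron form (60.0% to 72.3%), and *Yeats4*, a histone reader gene, from the coding Yeats4-201 (56.6%) to Yeats4-202, annotated as a target of nonsense-mediated decay (80.3% to 81.6%).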

How the data were processed

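Total RNA of 4 neural stem cell cultures was sequenced as PCR-amplified cDNA on a Nanopore instrument. The authors deposited a table of counts, whole reads per isoform, without normalization. The submitters' processing notes name build mm10. For long reads of dissected palliums the paper names minimap2 as the aligner and FLAIR for splicing events. It does not name an aligner and isoform caller separately for these cells. PCR reads carry no molecular identifiers, so all intervals cover counting error only. Of 255164 entries, 46637 named a gene (14949 genes, symbols from GENCODE M21), and 99.6% of plain transcripts were found in that annotation.

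Gene reads were scaled by TMM (edgeR 4.0.16, R 4.3.3) after the default expression filter (10596 genes). Usage was given with Wilson and differences with Newcombe 95% intervals, levels with exact Poisson and ratios with exact conditional binomial intervals (Python 3.11.15, scipy 1.17.1). Usage was tested only between Cre mRNA libraries, which for the members is not independent of their choice, for isoforms with at least 10 reads over a pair in genes that had 20 reads or more per library. A usage of 0 was set against 3 reads. DESeq2 1.42.0 size factors, library totals, other read minimums, other isoform sets and removal of each Cre mRNA library served as alternatives. The usage test and the level rule were also run on simulated data with known changes. Usage changes were planted only in deeply read genes, at a depth that only *Fer* and *2610008E11Rik* among the members reached. The simulation therefore does not cover the usage test for the other members.

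Named genes were the 8 members, the list of 28 partners and paralogs, the cell type markers, *Tut1*, *Trp53*, 4 sex-linked genes added after the data were seen, and the 5 genes with at least 50 reads in each library that ranked highest on the smallest of 6 usage differences. The members and lists were chosen with earlier results of these data known.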

Additional observations from a re-analysis of the deposited data

Results flagged for a closer look

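Reads of entries without a gene that lie inside a member's span were higher in all 3 Cre mRNA libraries than in Tut1f/f, with intervals that excluded no change, in 6 of 8 members; these entries entered no comparison of the report. The same held in 42.5% of the spans of 5653 genes, and in 67.8% of the 3458 spans with at least 50 such reads, a number that every member but *Lrwd1* reached, so nothing particular to the members is read from this count. The smallest of the 3 log2 ratios of scaled reads was 2.06 in *Cttnbp2*, 1.68 in *Fer*, 1.03 in *2610008E11Rik*, 0.91 in *Krit1*, 0.90 in *Cadm1* and 0.77 in *Stam*. All entries without a gene, taken over the whole table, had log2 ratios of 0.95 in Tut1f/f;Cre, 0.88 in Trp53f/f;Cre and 0.69 in Tut1f/f;Trp53f/f;Cre, and *Cttnbp2*, *Fer*, *2610008E11Rik*, *Cadm1* and *Krit1* had higher values than that in each of the 3 libraries. The intervals of *Cttnbp2* and *Fer* excluded that level in every library, whereas those of *2610008E11Rik* included it in all 3 and those of *Cadm1* and *Krit1* in 2 of 3 each, so their excess was within counting error there. *Stam* lay below it in Tut1f/f;Cre, at 0.89. *Cttnbp2* had 50 such reads in Tut1f/f and 199, 181 and 157 in the others, *Fer* had 70 and then 170, 194 and 182, and *2610008E11Rik* had 16 and then 36, 28 and 32. Other annotated genes overlap the spans of *Cttnbp2* (3), *Cadm1* (2), *Fer* (1) and *Krit1* (1), and the part of those genes in the reads was not tested. In *Lrwd1* such entries held 1 to 3 reads per library, and in *Fam149b* the interval in Tut1f/f;Trp53f/f;Cre included no change (log2 0.39, -0.10 to 0.88).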

How the results depend on the processing

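Of 267 alternative values, 241 kept their direction and side of the threshold or stayed close in size, 23 moved and 3 reversed. Part of this agreement is by construction. *Fer*, *Cadm1*, *Lrwd1*, *Cttnbp2*, *Fam149b* and *Krit1* had no isoform under 10 reads, so that limit could not change them. Merging variants left most member usages identical. The count of genes meeting the switch rule went from 277 (4.90% of 5654) to 385 (5.67% of 6790) with at least 10 reads in each library, 158 (4.15% of 3803) with at least 50, 76 (1.34% of 5654) with a lead of at least 10 points and 136 (3.22% of 4228) with annotated isoforms only, so the 50-read count fell mostly with the number of genes tested. Of the members, 2 of the 2 testable met the rule with at least 50 reads and 4 of 8 with the 10-point lead (*2610008E11Rik*, *Stam*, *Lrwd1* and *Fam149b*). With annotated isoforms only, 3 members had enough reads and isoforms and 0 met the rule, but *Cadm1* and *Krit1* had not met it before, so 1 call was lost. The median change over the 24 gene and library values was then -2.99 points in place of -42.61, largely by construction: *Fer*, *Lrwd1* and *Fam149b* kept 1 isoform and cannot change. The usage of the main isoform was still lower in Tut1f/f;Cre than in Tut1f/f in *Cadm1* (35% against 90.2%), *Krit1* (38.5% against 67.6%) and *Stam* (40% against 89.9%, on 10 annotated reads). The annotated main isoform of *Cttnbp2* became Cttnbp2-203, with 72.7% in Tut1f/f on 11 annotated reads. It was higher, at 84.8% in Tut1f/f;Cre, 87.7% in Trp53f/f;Cre and 80.6% in Tut1f/f;Trp53f/f;Cre, which are the 3 reversed values. By construction that setting removes the read-named isoforms. Merging variants with their transcript, chosen after seeing the data, left 5 members and ended the call of *Cttnbp2*. Leaving out 1 Cre mRNA library in turn, also chosen after seeing the data, gave 304 to 352 genes and 6 members each time. Leaving out a library only removes a condition of the rule, so no gene could be lost. *Cadm1* and *Krit1* had another main isoform in only 1 Cre mRNA library, so neither could be gained. The count of members was thus fixed by construction and is no check of the result. Scaling by library totals moved the all-gene median (log2) to 0.12, 0.10 and 0.12. No paired analysis was possible because each group is 1 library, and Tut1f/f could not be left out. Depth limits *Cttnbp2*, *Fam149b*, *Cadm1*, *Krit1* and *Stam*, which had 21 to 102 reads per library, and *Lrwd1*, which had 37 to 51 in the Cre mRNA libraries.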
